A study of Diospyros kaki with 21 samples.

Results

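Class III peroxidases, the secreted haem peroxidases of plants, were followed through high-CO2 deastringency of persimmon fruit. Members were chosen by annotation alone, as unigenes (assembled transcripts) with the Pfam peroxidase domain PF00141 whose best protein hit in the NR database was named a peroxidase but not an ascorbate peroxidase. The rule found 105 members among 261970 unigenes, and no expression value entered it. The RNA came from flesh of Diospyros kaki 'Jingmianshi', an astringent cultivar, and 21 libraries fell into 7 groups of 3 (replicates A, B and C). One group was control fruit (CK) at 0 d in storage, and each of 3 treatments (CK, CO2, CO2+1-MCP) gave a group at 1 d and another at 4 d. CO2 fruit were held in a sealed container under high CO2 for the first day, CO2+1-MCP fruit received the same gas together with 1-methylcyclopropene (1-MCP), which blocks ethylene receptors, and CK fruit were held in air. All fruit were then kept in air, so that the libraries at 1 d mark the end of the treatment. All groups came from 1 cultivar. The methods call the replicates biological but do not say how many fruit made up each or whether they came from separate containers, so the p-values measure the spread between these libraries, which may be partly technical.

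Class III peroxidases use hydrogen peroxide to oxidize phenolic compounds in the cell wall and vacuole, and under other conditions they can themselves release reactive oxygen. They polymerize lignin and suberin precursors, couple extensins (structural wall glycoproteins) and ferulate side chains, and are known both for stiffening and for loosening walls. The family is large in every land plant, with many members of unknown substrate. Persimmon flesh is rich in condensed tannins, which are phenolic, and it softens rapidly after CO2 treatment unless ethylene perception is blocked, so the comparisons of CO2 with CK and of CO2+1-MCP with CO2 address deastringency and softening.

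The annotation matched the family name for 96 of the 105 members. Of the other 9, 5 had a fungal mitochondrial cytochrome c peroxidase as best Swiss-Prot hit, 1 a bacterial catalase-peroxidase and 3 an ascorbate peroxidase, all of which belong to other classes of the same superfamily. The KEGG orthology entry was K00430, peroxidase, for 95 members. The NR hits carried 50 distinct descriptions, none from a Diospyros species, and 28 members shared a single description, "Peroxidase", from Actinidia chinensis. Lengths ran from 254 to 3296 bases with a median of 1224, and 18 members were shorter than 500 bases, so that several unigenes may be pieces of 1 gene. By best Swiss-Prot hit, 17 members matched Peroxidase 4 of grapevine and 14 matched Peroxidase 12 of Arabidopsis. Another 5 matched cationic peroxidase 1 of peanut, a secreted enzyme of known crystal structure, and 4, 3 and 2 matched Peroxidase 57, Peroxidase 51 and Peroxidase 20 of Arabidopsis. These names state the closest hit and not a persimmon gene name. Unigenes with close sequence can share reads, and the counting may split such reads between them, so values of neighbouring unigenes with a shared description are uncertain one by one. Only descriptions were compared, so a shared description need not mean the same database entry.

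Library totals ranged from 14644843 to 24943140 estimated counts. CO2+1-MCP 4d B stood apart from the other libraries of its group (Spearman correlation over unigenes 0.7006 with A and 0.6675 with C, against 0.8533 between A and C). Where the text gives an edgeR test of a named member from a fit of 2 groups that includes it, the result without it is given too. Results of DESeq2 and of one fit of all groups are given only with it. Transcripts named for xylem summed to 0.38–8.25 FPKM over all libraries (7 unigenes listed, 6 or 7 with counts in each group), and those named for seed to 45.9–74.2 FPKM (23 listed). Those named for phloem summed to 37.5–163 FPKM, of 87 listed, 6 of which had no count in any library. At 4 d the phloem sum was 103–111 FPKM in CK, 37.5–117 FPKM in CO2 and 150–163 FPKM in CO2+1-MCP. The xylem sum at 4 d was 5.7–7.12 FPKM in CK, 0.38–4.16 FPKM in CO2 and 2.94–4.47 FPKM in CO2+1-MCP. What these differences contribute to the comparisons at 4 d was not tested. By the NR name, 1 unigene was listed as a hit in a bacterium, fungus or animal, and it reached at most 0.59 FPKM. The members with a fungal or bacterial best Swiss-Prot hit had NR hits in Quercus suber and are not in that count. It therefore does not measure how much RNA was not from the plant. Cuticle-related transcripts (10 listed) summed to 4.19–6.23 FPKM in CK 4d and 12–16.5 FPKM in CO2+1-MCP 4d but to 64.7–172 FPKM in CO2 4d, and at 1 d to 5.61–7.01 FPKM in CK, against 11.1–19.1 FPKM with CO2 and 11.1–24.8 FPKM with CO2+1-MCP. They moved with the CO2 4d members described below, and their part in those results was not tested. In bulk flesh, fewer cells of a type and less RNA per cell cannot be told apart.

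Members were detected unevenly. Between 45 and 70 of them had a count in any 1 library, 20 had counts in all 21 libraries, and 2 had none in any. FPKM, which divides by unigene length and library depth, was used for levels. By this measure 26 members had a group mean of at least 5 FPKM in some group, 29 reached 1 but not 5 FPKM, and 50 stayed below 1 FPKM in every group. Of the 26 members, 12 had their highest group mean in CO2 4d, 6 in CO2+1-MCP 1d, 3 in CO2 1d, 2 in CK 0d, 2 in CO2+1-MCP 4d, 1 in CK 1d and 0 in CK 4d.

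The summed level of the members was higher in CO2 fruit than in CK fruit on both days. It was 575 ± 50.5 FPKM in CK 0d, 409 ± 54.7 in CK 1d and 504 ± 33.9 in CK 4d (SD, n = 3). In treated fruit it was 886 ± 63.5 FPKM in CO2 1d and 756 ± 77.5 in CO2+1-MCP 1d, and no library of either group fell within the range of CK 1d. At 4 d it was 1394 ± 690 FPKM in CO2, carried by 2190 FPKM in library A against 977 in B and 1014 in C, and 563 ± 103 in CO2+1-MCP. The CO2 4d libraries all lay above the highest CK 4d library (531 FPKM), whereas those of CO2+1-MCP 4d (464–670 FPKM) overlapped CK 4d (466–531 FPKM). As a share of counts the ordering at 4 d changed in 1 place, with 607 ± 44.9 CPM (counts scaled to library size) in CO2+1-MCP 4d and 674 ± 45 CPM in CK 4d.

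**Figure D1:**
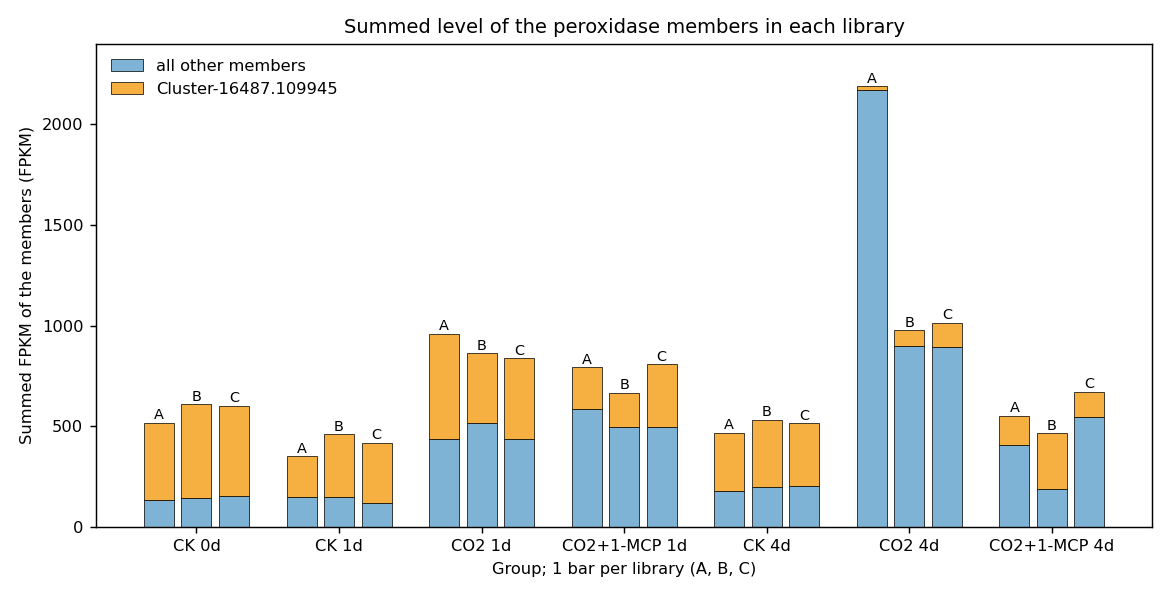
Summed FPKM of the 105 members in each of the 21 libraries, split into the most abundant member (Cluster-16487.109945) and all others. The most abundant member took 73.9–76.8% of the sum in CK 0d and 0.829–11.6% in CO2 4d, where library A reached 2190 FPKM.

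The most abundant member and the others moved apart. Cluster-16487.109945, 1874 bases long and closest to Peroxidase 42 of Arabidopsis, a peroxidase transcribed at a high level in many organs of that plant, led the family with 382, 467 and 449 FPKM in CK 0d. It held 73.9–76.8% of the summed level there, 58.3–71.1% in CK 1d and 60.4–62.9% in CK 4d. Without it, the remaining 104 members summed to 193 ± 12.9 FPKM in CK 4d, 1322 ± 736 in CO2 4d and 380 ± 180 in CO2+1-MCP 4d, and at 1 d to 138 ± 14.9 FPKM in CK, 462 ± 45.4 with CO2 and 527 ± 53 with CO2+1-MCP. The low CO2+1-MCP 4d library was B, with 188 FPKM against 408 in A and 544 in C.

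**Figure D2:**
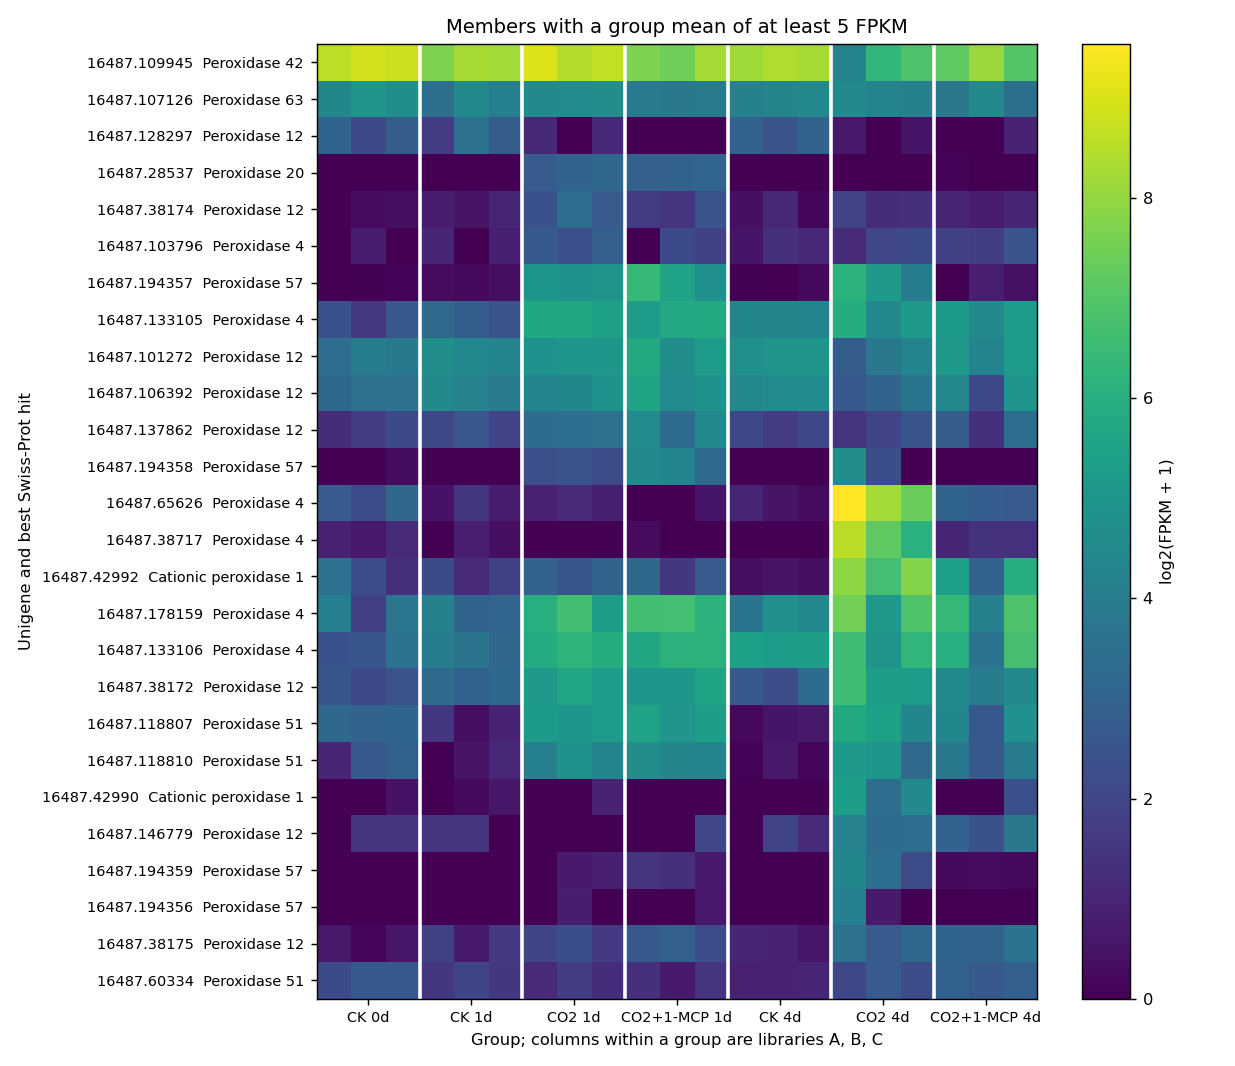
Level of the 26 members with a group mean of at least 5 FPKM, as log2(FPKM + 1), in every library, ordered by the group with the highest mean. Cluster-16487.65626 and Cluster-16487.38717 reached 744 and 376 FPKM in CO2 4d A, while the 3 libraries of CK 4d had at most 0.96 and 0 FPKM.

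Differences were tested on rounded estimated counts with edgeR's quasi-likelihood F test over all unigenes, and a member was called when its Benjamini–Hochberg adjusted p was below 0.05 and its fold change above 5, the thresholds of the study. At the end of treatment, 34 members had enough counts to be tested between CO2 1d and CK 1d, and 14 were called, all higher in CO2. Among all unigenes tested in that comparison, 20.0% were called, 10.8% higher and 9.19% lower. The 14 comprised 12 class III members and 2 cytochrome c peroxidase-like unigenes. Against the same CK 1d libraries, CO2+1-MCP 1d had 12 members called higher and 2 lower of 37 tested, with 17.6% of all unigenes called (9.26% higher, 8.29% lower). The median log2 fold change of the members that could be tested was 1.84 in CO2 and 1.09 in CO2+1-MCP, beside −0.05 over all unigenes in each. Because a member with counts in only 1 group must differ to be tested at all, these medians and the counts of calls describe the tested members only.

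At 4 d, 12 of 38 members tested were called between CO2 and CK, all higher in CO2, where 3.88% of all unigenes were called, 2.81% higher and 1.07% lower. All 12 were class III members. The lowest adjusted p by edgeR was 0.0183, and the calls changed with the library left out: none remained without CK 4d A, CK 4d B, CK 4d C or CO2 4d B, 12 were made without CO2 4d A and 17 without CO2 4d C. DESeq2 called 21 members higher and 2 lower, without a share over all unigenes to set beside these counts. The spread between CO2 4d libraries was wide, with a median coefficient of variation of 56.8% over the 20 members at 5 FPKM or more, against 7.89% over 9 members in CK 4d.

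Of the members called in CO2 against CK, 3 were called at both 1 d and 4 d, which is 21.4% of those at 1 d and 25% of those at 4 d. Over all unigenes the calls shared by both days were 5.49% of those at 1 d and 27% of those at 4 d. They were Cluster-16487.118807 and Cluster-16487.118810, both closest to Peroxidase 51, and Cluster-16487.194357, closest to Peroxidase 57. The difference itself was tested by an interaction (the CO2 effect at 4 d minus that at 1 d) in a fit of 12 libraries, where 9 of 50 members were called, 7 with a higher and 2 with a lower effect at 4 d. Among all unigenes in that fit, 12.1% were called, 6.79% with a higher and 5.33% with a lower effect. The balance of directions among the members changed with the method, with 8 higher and 9 lower by DESeq2, 7 and 5 by edgeR in one fit of all 7 groups, and 2 and 4 when counts were summed by NR description.

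Adding 1-MCP to CO2 gave no call among the members by edgeR with 2 groups in a fit, whereas other fits at 4 d called some. Between CO2+1-MCP 1d and CO2 1d, edgeR called 0 of 36 members (5 had an unadjusted p below 0.05, and DESeq2 called 0), and 0% of all unigenes were called. Between CO2+1-MCP 4d and CO2 4d, edgeR called 0 of 35 members, with 12 at an unadjusted p below 0.05 and a lowest adjusted p of 0.152, and 0% of all unigenes passed. With DESeq at the same thresholds, the study reported both up- and down-regulated genes between these treatments. The 0% therefore belongs to the fit used here. Without CO2+1-MCP 4d B the count was also 0. DESeq2 called 8 members there, edgeR in one fit of all 7 groups called 4 and edgeR without the filter on low counts called 12, all lower with 1-MCP. The 4 were Cluster-16487.65626, Cluster-16487.38717, Cluster-16487.194357 and Cluster-16487.194359. The median log2 difference of the tested members was −0.52, beside 0.09 over all unigenes. Between CO2+1-MCP 4d and CK 4d, edgeR called 0 of 30 members (16 at an unadjusted p below 0.05, lowest adjusted p 0.0518), with 0.202% of all unigenes called (0.177% higher, 0.0249% lower), whereas 6 were called without CO2+1-MCP 4d B and DESeq2 called 8 higher and 2 lower. The comparisons of CO2+1-MCP 4d and CO2 4d with each other and with CK 4d share libraries, so their values are given side by side and not counted together.

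**Figure D3:**
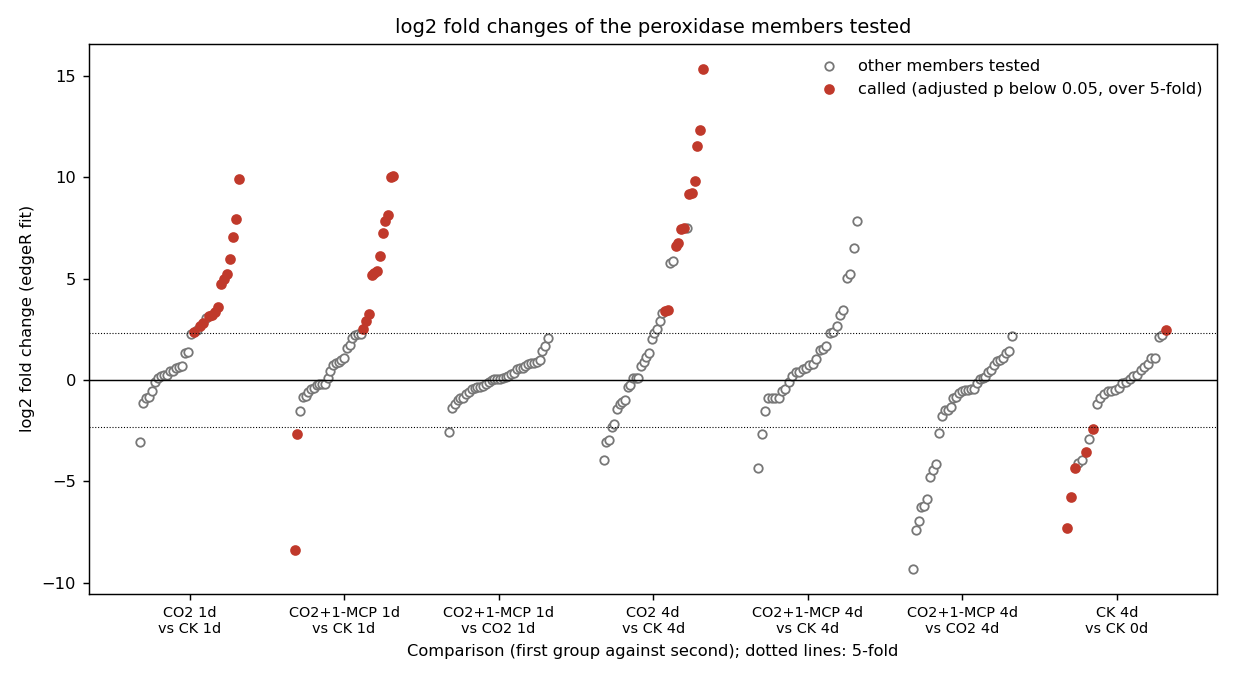
log2 fold change of each member tested in 7 comparisons (edgeR fit), with called members filled. All calls in CO2 1d against CK 1d and in CO2 4d against CK 4d lie above the upper 5-fold line, 2 of 14 in CO2+1-MCP 1d against CK 1d and 5 of 6 in CK 4d against CK 0d lie below the lower one, and the fits of 2 groups made none between CO2+1-MCP and CO2; values against a group without counts depend on the prior count of the fit.

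The 17 members closest to grapevine Peroxidase 4 held the highest levels reached in CO2 4d, summing to 470–1474 FPKM there against 75.2–86.7 FPKM in CK 4d and 60.5–270 FPKM in CO2+1-MCP 4d. Cluster-16487.65626 measured 744, 297 and 162 FPKM in CO2 4d, and 0.96, 0.43 and 0.22 FPKM in CK 4d. CO2+1-MCP 4d had 7.32, 6.25 and 5.65 FPKM, and no library at 1 d exceeded 1.86 FPKM. The groups at 4 d did not overlap, with CO2+1-MCP between CK and CO2. Its log2 fold change in CO2 4d against CK 4d was 9.80 ± 1.10 (SE, adjusted p = 0.0215, edgeR), 8.83 without CO2 4d A and 10.56 without CK 4d A. The difference between CO2+1-MCP 4d and CO2 4d was −6.23 ± 0.78 by edgeR (adjusted p = 0.152, and 0.363 without CO2+1-MCP 4d B) and was called by edgeR in one fit of all groups (adjusted p = 0.000837) and by DESeq2 (adjusted p = 8.39e-11).

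Cluster-16487.38717 had the same NR description, which 28 members carried, and the same best Swiss-Prot name, and followed the same course. It was at 376, 144 and 67.96 FPKM in CO2 4d, at 0 in all libraries of CK 4d and CO2 1d, and at 1.04, 1.61 and 1.56 FPKM in CO2+1-MCP 4d. Set against a floor of 3 counts over the CK 4d group, CO2 4d was at least 4212-fold higher (edgeR adjusted p = 0.0271). This bound was 2324 without CO2 4d A, which had the most counts, 2490 without CK 4d C and 5900 without CO2 4d C. The ratio of Cluster-16487.65626 to Cluster-16487.38717 was 1.98, 2.06 and 2.39 in the CO2 4d libraries A, B and C. Whether the pair shared reads was not tested, so it is uncertain how far these are separate measurements. With 1-MCP the log2 difference from CO2 4d was −7.39 ± 0.91 (edgeR adjusted p = 0.152, and 0.363 without CO2+1-MCP 4d B). It was called by edgeR in one fit of all groups (adjusted p = 0.00246) and by DESeq2 (adjusted p = 9.4e-13).

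Some other Peroxidase 4-type members were already higher at 1 d and did not follow that course. Members at lower levels did follow it, such as Cluster-16487.21114 (named after its values were seen). That unigene had 5.78, 3.21 and 0.99 FPKM in CO2 4d and at most 0.18 FPKM in any other library. Cluster-16487.133105 had 8.88, 6.47 and 4.44 FPKM in CK 1d, 50.11, 51.57 and 43.24 in CO2 1d, and 38.13, 52.64 and 55.89 in CO2+1-MCP 1d. It rose by a log2 fold change of 2.82 ± 0.30 in CO2 (edgeR adjusted p = 0.00101) and 2.90 ± 0.32 in CO2+1-MCP (edgeR adjusted p = 0.0016), and both treated groups lay clear of CK 1d. At 4 d its libraries had 59, 20.87 and 33.85 FPKM in CO2 and 19.96, 19.12 and 18.52 FPKM in CK, a log2 difference of 1.13 ± 0.46 that did not pass (edgeR adjusted p = 0.199).

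Both short unigenes of this type, Cluster-16487.133106 (475 bases, the same NR description) and Cluster-16487.178159 (277 bases, a sunflower hit), were also called higher at 1 d. The first had 15.65, 11.75 and 7.94 FPKM in CK 1d and 57.63, 72.29 and 58.88 in CO2 1d, a log2 fold change of 2.39 ± 0.31 (edgeR adjusted p = 0.00205). The second had 16.71, 7.14 and 7.63 FPKM in CK 1d, 64.43, 98.47 and 39.53 in CO2 1d (log2 2.66 ± 0.61, edgeR adjusted p = 0.0142), and 100, 101 and 70.51 in CO2+1-MCP 1d. Both lay above CK 1d in every treated library, and in both the CO2+1-MCP 4d library B was low, at 11.35 FPKM against 62.19 and 105 for the first and at 16.95 FPKM against 80.64 and 115 for the second. Neither differed past the threshold between CO2 4d and CK 4d (log2 0.87 ± 0.47, adjusted p = 0.323, and 2.54 ± 0.77, adjusted p = 0.107, edgeR).

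Of the 5 members closest to cationic peroxidase 1 of peanut, 2 were called in CO2 4d against CK 4d, both higher. Another 2, Cluster-16487.42991 and Cluster-16487.18033, had counts only in treated fruit at 1 d, and Cluster-18370.0 stayed at or below 1.76 FPKM (these 3 were named after their values were seen). Cluster-16487.42992 had 240, 102 and 215 FPKM in CO2 4d and 0.29, 0.43 and 0.30 FPKM in CK 4d. Values in CO2+1-MCP 4d were 41.13, 7.05 and 59.88 FPKM, and those at 1 d ran over 1.25–3.41 FPKM for CK, 4.82–7.17 FPKM for CO2 and 1.92–8.07 FPKM for CO2+1-MCP. CO2 4d lay above every other library, and CO2+1-MCP 4d lay between it and CK 4d without overlap. The log2 fold change in CO2 4d was 9.20 ± 0.57, the lowest adjusted p of any member in that comparison (0.0183, edgeR), and the effect at 4 d exceeded that at 1 d by 7.81 ± 0.67 (edgeR adjusted p = 8.94e-05). Against CK 4d, CO2+1-MCP 4d was higher by 6.51 ± 0.85 on the log2 scale, just short of the threshold with all libraries (edgeR adjusted p = 0.0532) and past it without CO2+1-MCP 4d B (0.00367; up to 0.35 with another library left out).

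Its neighbour Cluster-16487.42990, also closest to cationic peroxidase 1, was at 39.98, 9.66 and 21.44 FPKM in CO2 4d and at 0 in all CK 4d libraries. This made it at least 580-fold higher in CO2 4d (edgeR adjusted p = 0.0267), with bounds of 402 without CO2 4d A and 343 without CK 4d C. In CO2+1-MCP 4d it was at 0 in A and B and at 4.06 FPKM in C, below every CO2 4d library.

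Of the 4 Peroxidase 57-type members, 2 could be tested in CO2 1d against CK 1d and 3 in CO2+1-MCP 1d against CK 1d, and all of these were called higher. With few or no counts in CK 1d, they passed the filter through the treated groups. A higher value in every member tested was therefore largely fixed in advance. Overexpression of Peroxidase 57 in Arabidopsis is known to make the leaf cuticle more permeable. Cluster-16487.194357 had 0.20, 0.15 and 0.28 FPKM in CK 1d, 31.12, 28.58 and 30.69 FPKM in CO2 1d, and 83.83, 44.38 and 26.36 FPKM in CO2+1-MCP 1d. The log2 fold change was 7.03 ± 0.27 in CO2 1d (edgeR adjusted p = 5.62e-05, the lowest of the members there) and 7.86 ± 0.60 in CO2+1-MCP 1d (edgeR adjusted p = 0.000498). The treated groups overlapped each other, and their difference of 0.81 ± 0.42 did not pass (edgeR adjusted p = 0.739).

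By 4 d the treated groups had parted for this unigene. It was at 69.96, 34.39 and 14.97 FPKM in CO2 4d, at 0, 0.75 and 0.36 FPKM in CO2+1-MCP 4d, and at 0.05, 0 and 0.15 FPKM in CK 4d. CO2+1-MCP 4d overlapped CK 4d, and both were clear of CO2 4d. CO2 4d exceeded CK 4d by 9.19 ± 1.11 on the log2 scale (edgeR adjusted p = 0.0217), by 8.34 without CO2 4d A and by 10.48 without CK 4d C. The difference of −6.94 ± 1.34 between CO2+1-MCP 4d and CO2 4d was called by DESeq2 (adjusted p = 1.39e-05) and by edgeR in one fit of all groups (adjusted p = 0.000634), and not by edgeR with 2 groups (adjusted p = 0.194). Without CO2+1-MCP 4d B that difference was −8.16 ± 1.51 (edgeR adjusted p = 0.364).

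Cluster-16487.194358 and Cluster-16487.194359 carried its NR description and its best Swiss-Prot name, Peroxidase 57. The former had 4.03, 4.73 and 3.52 FPKM in CO2 1d and 21.82, 18.64 and 8.71 FPKM in CO2+1-MCP 1d, against 0, 0 and 0.02 FPKM in CK 1d. CO2+1-MCP 1d was clear of CO2 1d, a log2 difference of 2.05 ± 0.44 with an unadjusted p of 0.00251 and an edgeR adjusted p of 0.357. The latter was at 19.59, 10.30 and 3.71 FPKM in CO2 4d and at 0 in all 9 CK libraries, at least 304-fold higher than CK 4d (edgeR adjusted p = 0.0334), with bounds of 191 without CO2 4d A and 180 without CK 4d C. In CO2+1-MCP 4d it was at 0.17, 0.20 and 0.16 FPKM, lower than CO2 4d by a log2 difference of −6.27 ± 0.86 that edgeR did not call (adjusted p = 0.152, and 0.363 without CO2+1-MCP 4d B). In one fit of all groups edgeR called it (adjusted p = 0.0211), as did DESeq2 (adjusted p = 4.58e-08).

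**Figure D4:**
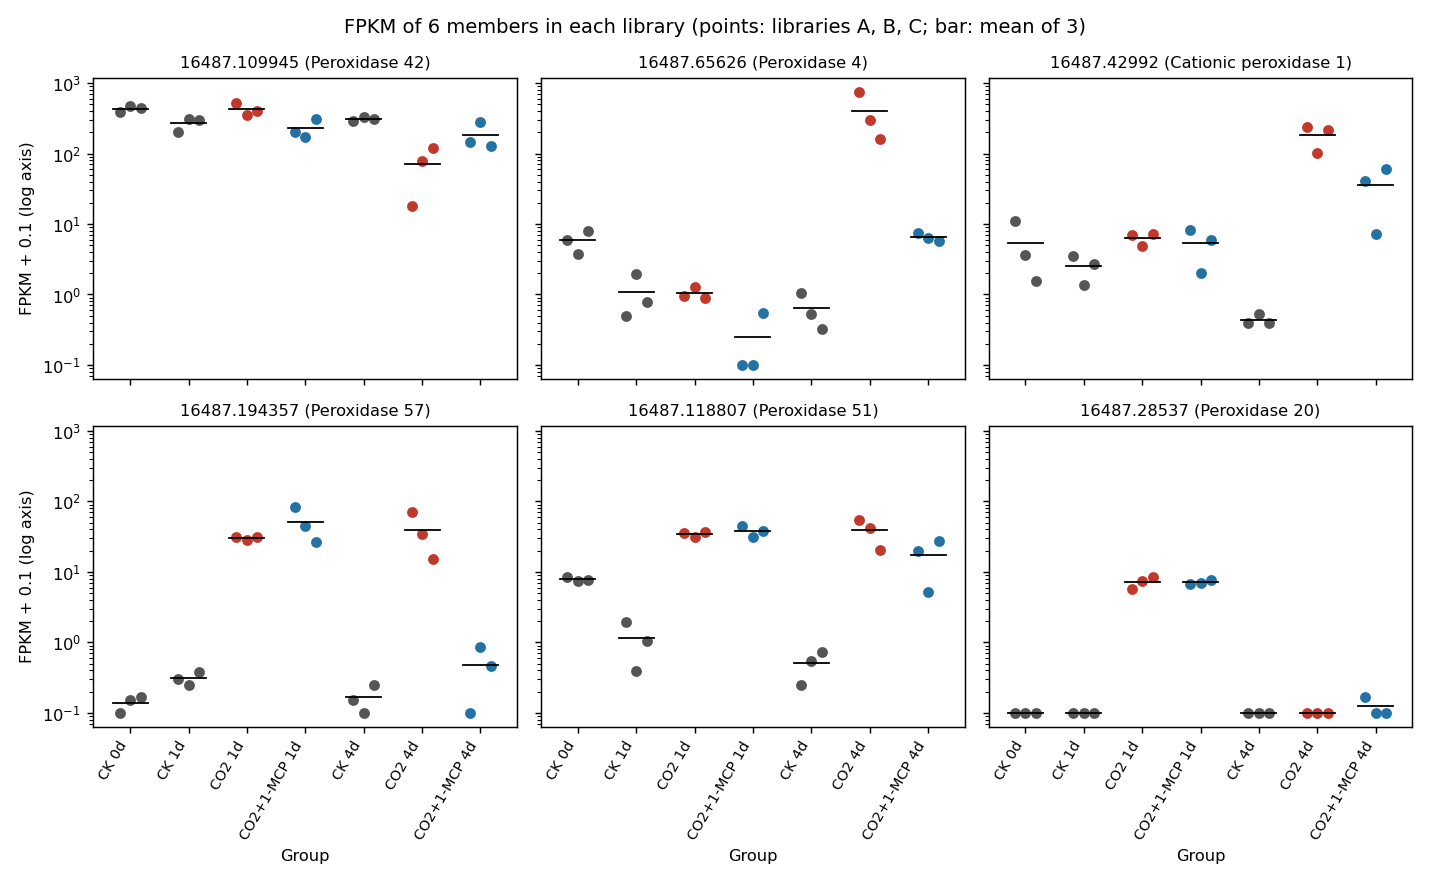
FPKM + 0.1 on a log axis for 6 members in every library, with a bar at each group mean (grey, CK; red, CO2; blue, CO2+1-MCP). Cluster-16487.28537 was detected at 5.65–8.26 FPKM only in the treated groups at 1 d, apart from 0.07 FPKM in CO2+1-MCP 4d A, while Cluster-16487.194357 remained at 14.97–69.96 FPKM in CO2 4d but not in CO2+1-MCP 4d.

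Of the 3 Peroxidase 51-type members, 2 were called higher in CO2 than in CK on both days, and 2 were called lower in CK 4d than in CK 0d. Cluster-16487.118807 had 8.42, 7.25 and 7.51 FPKM in CK 0d, 1.87, 0.29 and 0.95 in CK 1d, and 0.15, 0.44 and 0.63 in CK 4d. Between CK 4d and CK 0d it fell by 4.33 ± 0.49 on the log2 scale (edgeR adjusted p = 0.0116), with no overlap. In CO2 fruit it had 36.07, 31.29 and 36.36 FPKM at 1 d and 55.16, 41.91 and 20.08 FPKM at 4 d, log2 fold changes against CK of 5.0 ± 0.57 and 6.75 ± 0.77 (edgeR adjusted p = 0.00123 and 0.0216), the first being 5.71 without CK 1d A. The 2 effects differed by 1.70 ± 0.93 without passing (edgeR adjusted p = 0.244).

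CO2+1-MCP libraries of this unigene had 44.63, 30.80 and 38.48 FPKM at 1 d and 19.56, 5.11 and 27.42 FPKM at 4 d, every one above CK of the same day. Its edgeR adjusted p against CK was 0.00164 at 1 d (log2 5.19 ± 0.58, or 5.90 without CK 1d A) and 0.0695 at 4 d (log2 5.24 ± 0.83). At 4 d it passed without CO2+1-MCP 4d B (log2 5.63 ± 0.52, edgeR adjusted p = 0.0107). Cluster-16487.118810 (820 bases) gave log2 fold changes of 5.21 ± 0.86 in CO2 1d and 6.62 ± 0.98 in CO2 4d (edgeR adjusted p = 0.00442 and 0.0257), with FPKM of 16.15, 29.06 and 18.51 and of 35.18, 32.40 and 8.93. Without CK 1d C the first was 6.52, and without CK 4d B the second was 7.71. Its CK libraries at those days did not exceed 1.16 FPKM.

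The remaining Peroxidase 51-type member, Cluster-16487.60334, moved differently. It had 3.41, 5.24 and 5.14 FPKM in CK 0d and 0.83, 0.86 and 0.97 FPKM in CK 4d, a fall by 2.42 ± 0.28 on the log2 scale (edgeR adjusted p = 0.0125). At 4 d it stood at 3.21, 5.73 and 3.78 FPKM in CO2 and 6.81, 5.41 and 6.54 FPKM in CO2+1-MCP, both groups above CK 4d and overlapping each other. The CO2+1-MCP difference from CK 4d was 2.66 ± 0.34, with the lowest adjusted p of the members in that comparison (0.0518, edgeR). It passed without CO2+1-MCP 4d B (2.68 ± 0.27, edgeR adjusted p = 0.0125) and in one fit of all groups (edgeR adjusted p = 0.00234). At 1 d the treated libraries (0.62–2.29 FPKM) lay below the range of CK 1d (1.86–2.96 FPKM), apart from 1 CO2 library within it.

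Expression limited to the end of treatment was seen for the Peroxidase 20-type pair. Cluster-16487.28537 had 5.65, 7.24 and 8.26 FPKM in CO2 1d and 6.53, 6.84 and 7.56 FPKM in CO2+1-MCP 1d. It was at 0 in all CK and CO2 4d libraries and reached 0.07 FPKM in 1 CO2+1-MCP 4d library. Against the floor it was at least 133-fold higher in CO2 1d and at least 134-fold higher in CO2+1-MCP 1d than in CK 1d (edgeR adjusted p = 0.000608 and 0.00087; bounds of 82.8 and 83.6 without CK 1d C), and with 1-MCP it differed from CO2 1d by 0.03 ± 0.22 on the log2 scale. Cluster-16487.195989, named here after its values were seen because it has the same NR description and Swiss-Prot name, had 2.21, 3.70 and 5.12 FPKM in CO2 1d, 3.96, 4.38 and 2.78 FPKM in CO2+1-MCP 1d, and at most 0.21 FPKM in any other library.

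Peroxidase 12-type members went in both directions. Cluster-16487.38172 had 8.92, 6.97 and 8.02 FPKM in CK 1d and 34.78, 49.37 and 36.38 FPKM in CO2 1d, an increase of 2.28 ± 0.20 on the log2 scale that passed in p (edgeR adjusted p = 0.000479) and stayed under 5-fold. At 4 d it had 95.08, 39.14 and 37.82 FPKM in CO2 against 5.37, 3.77 and 9.39 FPKM in CK, and was called (log2 3.39 ± 0.62, or 2.65 without CO2 4d A, edgeR adjusted p = 0.0353). CO2+1-MCP 4d had 22.44, 15.67 and 21.76 FPKM, between CK and CO2 without overlap.

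Cluster-16487.38174 and Cluster-16487.38175, with the same NR description from Cephalotus, were called in CO2 against CK on different days. The first had 4.36, 9.79 and 5.60 FPKM in CO2 1d against 0.67, 0.40 and 1 FPKM in CK 1d, a log2 fold change of 3.21 ± 0.47 (edgeR adjusted p = 0.00304). At 4 d its CO2 libraries (2.88, 1.29 and 1.48 FPKM) also lay above those of CK (0.3, 1.11 and 0.12 FPKM), without a call by edgeR. The second had 2.68, 0.61 and 2.01 FPKM in CK 1d, which CO2 1d overlapped (2.94, 3.94 and 2.05 FPKM) and CO2+1-MCP 1d did not (5.13, 6.56 and 3.57 FPKM). At 4 d it had 10.71, 5.73 and 8.40 FPKM in CO2 and 7.42, 7.27 and 11.40 FPKM in CO2+1-MCP against 1.04, 0.95 and 0.49 FPKM in CK. It was called in CO2 4d (log2 3.43 ± 0.51, edgeR adjusted p = 0.0263) and its difference of 3.23 ± 0.44 in CO2+1-MCP 4d had an edgeR adjusted p of 0.0582. That difference passed without CO2+1-MCP 4d B (3.28 ± 0.41, edgeR adjusted p = 0.02), in one fit of all groups (edgeR adjusted p = 0.00742) and by DESeq2 (adjusted p = 1.91e-06).

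The opposite direction was shown by Cluster-16487.128297 (631 bases, an apple Peroxidase 12-like hit). It was at 2.23, 10.89 and 6.04 FPKM in CK 1d and 6.85, 4.42 and 7.21 FPKM in CK 4d, and no treated library on either day exceeded 1.13 FPKM. CO2+1-MCP 1d had no count in any library, so that it was at least 39.5-fold lower than CK 1d (edgeR adjusted p = 0.00949), or 25.1-fold without CO2+1-MCP 1d C. Values in CO2 1d were 1.13, 0 and 1.10 FPKM (log2 −3.08 ± 1.06, edgeR adjusted p = 0.0577), and those in CO2 4d were 0.59, 0 and 0.47 FPKM (log2 −3.94 ± 0.92, edgeR adjusted p = 0.0572). Cluster-16487.106392 and Cluster-16487.137862, named after their values were seen, carried the same NR description. Their group means were 17.9 and 3.7 FPKM in CK 1d, and 33 and 17.8 FPKM in CO2+1-MCP 1d. At 4 d they were 22.6 and 2.89 FPKM in CK, and 8.19 and 3.02 FPKM in CO2. How far reads were split between these unigenes was not tested.

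Cluster-16487.101272, closest to strawberry Peroxidase 12, was among the 10 most abundant members. At 1 d it had 25.01, 21.05 and 18.95 FPKM in CK, against 28.81, 30.99 and 31.99 FPKM with CO2 and 53.92, 25.26 and 37.51 FPKM with CO2+1-MCP. At 4 d it was at 5.95, 12.97 and 18.93 FPKM in CO2, below 26.30, 29.51 and 30.70 FPKM in CK, a log2 difference of −1.19 ± 0.31 (edgeR adjusted p = 0.0725). Its effect of CO2 was lower at 4 d than at 1 d by −1.70 ± 0.35 on the log2 scale (edgeR adjusted p = 0.00775), which is below 5-fold.

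The most abundant member also had a lower effect of CO2 at 4 d. Cluster-16487.109945, the Peroxidase 42-type unigene, had 205, 313 and 296 FPKM in CK 1d and 521, 348 and 402 FPKM in CO2 1d, then 287, 334 and 311 FPKM in CK 4d and 18.16, 78.33 and 118 FPKM in CO2 4d. CO2 libraries were thus all above CK at 1 d and all below it at 4 d. Neither difference passed alone (log2 0.61 ± 0.26, adjusted p = 0.107, and −2.16 ± 0.53, adjusted p = 0.0638, edgeR), but their difference of −2.84 ± 0.62 was called in the interaction (edgeR adjusted p = 0.00997). CO2+1-MCP 4d had 145, 276 and 126 FPKM, above every CO2 4d library and below every CK 4d library. The log2 difference of CO2+1-MCP 4d from CO2 4d was 1.32 ± 0.66 (edgeR adjusted p = 0.928) and from CK 4d −0.88 ± 0.37 (edgeR adjusted p = 0.399). Without CO2+1-MCP 4d B they were 0.74 ± 0.61 (edgeR adjusted p = 0.824) and −1.41 ± 0.13 (edgeR adjusted p = 0.011, under 5-fold).

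The interaction also gave its lowest p-values to the members named above for CO2 4d. After Cluster-16487.42992 came Cluster-16487.65626, with an effect larger at 4 d by 9.86 ± 1.21 on the log2 scale (edgeR adjusted p = 0.000492; 8.87 without CO2 4d A, 9.02 without CK 1d B and 10.65 without CK 4d A), and Cluster-16487.38717 (edgeR adjusted p = 0.00422). The fitted value of the latter rests on 2 groups without counts and gives no size. A contrast within the family was Cluster-16487.107126, closest to Peroxidase 63, which measured 10.40–30.63 FPKM over all 21 libraries. It had 21.89, 18.42 and 16.79 FPKM in CO2 4d and 17.20, 19.22 and 21 FPKM in CK 4d (log2 0.10 ± 0.27, edgeR adjusted p = 0.848), and 14.18, 13.29 and 14.52 FPKM in CO2+1-MCP 1d against 21.95, 23.19 and 24.79 in CO2 1d (log2 −0.71 ± 0.15, edgeR adjusted p = 0.357).

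In CK fruit, 1 member was called higher and 5 lower at 4 d than at 0 d, of 28 tested, where 1.67% of all unigenes were called (1.37% higher and 0.299% lower). The count fell to 2 without CK 0d A, to 1 without CK 0d B, to 4 (2 higher and 2 lower) without CK 0d C, to 1 without CK 4d A or C, and to 0 without CK 4d B, and a 2-fold threshold gave 4 higher and 5 lower. The member called higher was Cluster-16487.133106, from 4.23, 4.91 and 11.46 FPKM to 41.54, 38.08 and 38.21 FPKM (log2 2.45 ± 0.38, edgeR adjusted p = 0.024). Among those called lower, Cluster-16487.65626 went from 5.76, 3.68 and 7.92 FPKM at 0 d to below 1 FPKM at 4 d (log2 −3.54 ± 0.59, edgeR adjusted p = 0.0276; −4.30 and 0.0612 without CK 4d A). Thus several unigenes with high values in CO2 4d, this one and the Peroxidase 51-type pair, had higher values in CK fruit at 0 d than at 4 d.

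Peroxidases tied to lignin in Arabidopsis or tobacco were scarce. The 17 members whose best Swiss-Prot hit was such an enzyme (Peroxidase 25, 52, 64 or 72 of Arabidopsis, or the lignin-forming anionic peroxidase of tobacco) summed to 0.71–1.08 FPKM in CK 4d, 1.46–9.72 FPKM in CO2 4d and 1.09–1.43 FPKM in CO2+1-MCP 4d. At most 2 of them had enough counts to be tested in any comparison. Called by edgeR were 0 in every comparison, 0 had an unadjusted p below 0.05, and DESeq2 called 2, both Peroxidase 52-type, higher in CO2 4d than in CK 4d. Members matching a suberin-linked peroxidase or Peroxidase 33 or 34 of Arabidopsis, which serve the apoplastic oxidative burst, numbered 0. The members called higher in CO2 4d by edgeR all lay outside these hits, but the split rests on the best hit alone. Cluster-2772.1 matched Peroxidase 52, whereas Cluster-2772.2 matched Peroxidase 4 of grapevine (both named after their values were seen). The first had 4.04, 0.34 and 0.95 FPKM in CO2 4d and the second 7.92, 1.73 and 2.53 FPKM, against at most 0.05 FPKM in CK 4d.

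Related genes of phenolic and wall oxidation were read from the same fits. In those fits 10.8% of all unigenes were called higher and 9.19% lower in CO2 1d against CK 1d. In CO2 4d against CK 4d the shares were 2.81% higher and 1.07% lower. The counts of calls in the related lists stand beside these shares and were not tested against them. Laccases, copper enzymes that oxidize phenolics with oxygen, numbered 52 unigenes and summed to 7578–8832 FPKM in CK 1d and 1784–2804 FPKM in CO2 1d, where 1 was called higher and 2 lower of 29 tested (median log2 −1.86, beside −0.05 over all unigenes). At 4 d they summed to 10394–11627 FPKM in CK 4d, 1986–7492 FPKM in CO2 4d and 6000–11822 FPKM in CO2+1-MCP 4d, and 1 of 27 was called, higher in CO2 than in CK. Their summed level thus lay lower in CO2 than in CK on both days, where that of the peroxidases lay higher.

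Ascorbate peroxidases, intracellular enzymes that detoxify hydrogen peroxide, numbered 37 and had a median log2 fold change of 0.01 in CO2 4d against CK 4d, with 0 of 19 called by edgeR (7 at an unadjusted p below 0.05, and 0 by DESeq2). At 1 d 0 were higher and 1 lower of 19, although their sum was 1077–1227 FPKM in CO2 and 703–842 FPKM in CK. Dirigent proteins, which steer the coupling of phenolic radicals, had 2 of 12 called higher in CO2 4d and 1 of 11 in CO2 1d, and none lower. Over all unigenes, 2.81% and 10.8% were called higher in these comparisons. Extensins had 0 of 17 called at 4 d (3 at an unadjusted p below 0.05, DESeq2 3 higher) and 3 of 14 called lower at 1 d. Their summed level at 1 d went the other way, with 259–276 FPKM in CK, 432–495 FPKM in CO2 and 454–695 FPKM in CO2+1-MCP. Respiratory burst oxidases, the membrane enzymes that make superoxide from which hydrogen peroxide arises, had 0 of 4 called at 4 d (1 at an unadjusted p below 0.05, DESeq2 0) and 0 of 3 at 1 d (1 at an unadjusted p below 0.05, DESeq2 2 higher).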

How the data were processed

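RNA-seq of persimmon flesh was analysed for 21 libraries, 3 in each of 7 groups. According to the study's methods and labels, reads were assembled with Trinity into 261970 unigenes without a genome, and RSEM is named in the submitters' processing notes (version not given in the sources used here). The authors deposited an estimated count (RSEM's expected count) per unigene and library, without normalization. They also deposited FPKM, which corrects for length and depth. Unigene lengths came from their annotation table. Counts were rounded and tested with edgeR 4.0.16 in R 4.3.3 (filterByExpr, TMM, quasi-likelihood F test, 2 groups per fit, 12 libraries for the interaction), adjusted over all unigenes tested. A floor of 3 counts over a group stood for a group without counts and covers counting error only. SE was derived from the log2 fold change and F.

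Members and lists were chosen with earlier results of these data known. The text names the 10 members with the highest mean FPKM, the 5 highest and 5 lowest log2 fold changes among called members of at least 5 FPKM in a group (or, without such calls, the 3 lowest p-values), and the 3 lowest p-values of the interaction. This gave 21 members, and any other is marked where named.

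Alternatives were a 2-fold threshold, DESeq2 1.42.0, RLE scaling, tests without the filter, a single fit of the 7 groups, a block for the replicate letter, counts summed by NR description, leaving out each library and, chosen after seeing the data, class III members only. Pairing by letter was judged by a correlation of same-letter libraries above 0.1 for all letters, which was met in none of 7 comparisons. This rule cannot detect pairing of some letters only. In CO2+1-MCP 4d against CO2 4d, letter B reached 0.354 and letter C 0.289, while letter A stayed at 0.00529. The highest correlation in the other comparisons was 0.109 (letter C, CO2 4d against CK 4d). Only the main edgeR fit, for a single comparison of groups, was tested on simulated data. Tables and figures used Python 3.11.15, pandas 2.3.3, numpy 2.4.6 and matplotlib 3.10.9.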

Additional observations from a re-analysis of the deposited data

Results flagged for a closer look

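The CO2 effect (CO2 minus CK, log2) differed between 4 d and 1 d by the interaction test for 7 members named in the text, out of 9 called. It was larger at 4 d for Cluster-16487.42992 (7.81), Cluster-16487.65626 (9.86), Cluster-16487.38717 (21.16), Cluster-16487.42990 (12.03), Cluster-16487.60334 (2.79) and Cluster-16487.38175 (2.66). The values for Cluster-16487.38717 and Cluster-16487.42990 rest on groups without counts and depend on the prior count of the fit, and the latter did not pass without CK 1d C (adjusted p = 0.0942, edgeR). The effect was lower at 4 d for Cluster-16487.109945 (−2.84), the most abundant member.

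Opposite directions on the 2 days were also seen in comparisons whose difference was not tested. For Cluster-16487.109945 every CO2+1-MCP library was below every CO2 library at 1 d and above every one at 4 d, where the log2 difference was 1.32. For Cluster-16487.60334 every CO2+1-MCP library was below every CK library at 1 d and above every one at 4 d, where the log2 difference was 2.66.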

How the results depend on the processing

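Counts of called members by edgeR were 12 (CO2 4d against CK 4d), 0 (CO2+1-MCP 4d against CO2 4d), 0 (CO2+1-MCP 4d against CK 4d), 14 (CO2 1d against CK 1d), 0 (CO2+1-MCP 1d against CO2 1d), 14 (CO2+1-MCP 1d against CK 1d), 6 (CK 4d against CK 0d) and 9 (interaction). They moved by over 1.5 times under DESeq2 to 23, 8 and 10 in the 3 comparisons at 4 d and to 17 in the interaction. Without the filter they were 21, 12 and 6 at 4 d and 22 in CO2 1d against CK 1d. In one fit of all groups they were 20, 4 and 8 at 4 d. Summing by NR description gave 3 in CO2+1-MCP 4d against CK 4d, 5 in CO2 1d against CK 1d and 6 in CO2+1-MCP 1d against CK 1d. The replicate block left 0 in CO2 4d against CK 4d, 8 in CO2 1d against CK 1d and 0 in CK 4d against CK 0d. Leaving out 1 library gave 0–17, 0–0, 0–6, 11–15, 0–0, 14–16, 0–4 and 6–9 in the order above.

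Of 359 alternative values for the named members, 297 kept their direction and side of the threshold, 42 no longer passed, 20 newly passed and 0 changed sign. The cause of these changes was not tested. Shares over all unigenes are given for the main edgeR fits only, so counts under the alternatives have none beside them. With 3 libraries a group, the 4 d counts are the least certain; those at 1 d with all libraries or without 1 stayed between 11 and 16 in both comparisons with CK. Low members could not be tested, and shared reads limit what 1 unigene shows.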
